A study of Mus musculus with 2 samples.

Results

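The stretch of mouse chromosome 2 from 10 to 20 Mb (GRCm38) was examined in 2 RNA sequencing libraries. Members were the annotated genes whose start lies in that window and whose raw read count reached 25 in either library. The table held 285 genes of the window, and 63 were members, out of 15916 genes that reached the same count among all 46983. By GENCODE class, 34 members were protein coding, 18 were miRNA genes, 7 were TEC loci (single-exon models that await experimental checking) and 4 were other noncoding genes. The window and the count minimum had been chosen with the values of these libraries in view, so what follows is a description without tests.

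Both libraries came from mouse embryonic stem cells of the line 46C, which carries a reporter at the Sox1 locus, grown on feeder cells in serum with the cytokine LIF. The knockdown group expressed an shRNA, a hairpin that triggers RNA interference, directed at the noncoding transcript linc1557 from the pLKO.1-TRC vector. The control group expressed a control shRNA. Both were selected with puromycin, and clones with stable infection were picked. Each group had 1 library, so there is no replicate check, and differences between clones and differences between hairpins cannot be told apart. The transcript linc1557 itself was not analysed here, so the labels were not checked by its level.

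Total counts were 26693282 for the knockdown library and 23146210 for the control. Markers of pluripotency were present in both, with 12 of 12 measured and none called, and Pou5f1 had 8474 and 7269 counts. Fibroblast markers, which feeder cells and differentiating cells can both express, were present too: 26 of 26 were detected in both libraries, with a summed level of 674 CPM (counts scaled to a common library size) in the knockdown and 1988 CPM in the control. In bulk samples, fewer cells of a type and less RNA per cell cannot be told apart. Ratios are knockdown over control after TMM scaling, a normalisation of library size. Calls of lower or higher needed a ratio of 2-fold or more together with an exact 95% interval (Clopper-Pearson) that did not include 1. Intervals in brackets cover counting error only.

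Sfmbt2 encodes a Polycomb group protein with MBT repeats, which bind methylated histone tails. The gene is known to be imprinted in mouse, with expression from the paternal allele in early embryos and extraembryonic tissue. An intron of it holds a large rodent miRNA cluster, whose families miR-297, miR-466, miR-467 and miR-669 arose by repeated local duplication. A miRNA that lies in an intron is usually cut from the host's primary transcript by the Drosha complex.

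Most members called lower in the window lay at that locus, but its 18 miRNA members reached the count minimum in the control library alone. Those 18 had to show fewer counts in the knockdown. Sfmbt2 and the 18 miRNA members, all of which lie in an intron of it on the same strand, made up 19 of the 25 members called lower, and they stood next to each other without a gap in the order of members. The other lower members were 6 protein-coding genes elsewhere in the window, 4 of which stood in adjacent pairs, namely Il15ra, Itga8, Mrc1, Cacnb2, Plxdc2 and Nebl. Of the 63 members, 25 (39.7%) were lower and 5 (7.94%) were higher, where 9.44% of all 15916 genes were lower and 4.81% were higher. Nothing is read from that excess, because the window was picked on these values. With the 18 miRNA genes left out, so that Sfmbt2 counted as a single locus, 7 of 45 members (15.6%) were lower.

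The exons of Sfmbt2 and the cluster lie downstream of the same starts on the same strand, so the 250 bases before each RefSeq start of Sfmbt2 are shown. Beside them stands the stretch before Mrc1, the protein-coding member with the lowest ratio, which is printed only up to the first exon base in GENCODE. They are given 5′ to 3′ on the plus strand from the RefSeq table of GRCm38.p6, and capitals mark CpG dinucleotides, the letters CG, which read the same on both strands. The Sfmbt2 stretches lie at chr2:10370201-10370450 and chr2:10372186-10372435 and the Mrc1 stretch at chr2:14229164-14229391.
Sfmbt2, first start: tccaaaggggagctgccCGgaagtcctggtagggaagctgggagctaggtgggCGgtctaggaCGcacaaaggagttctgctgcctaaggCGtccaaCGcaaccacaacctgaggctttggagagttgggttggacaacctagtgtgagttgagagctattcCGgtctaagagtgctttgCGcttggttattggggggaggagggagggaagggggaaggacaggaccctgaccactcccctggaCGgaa
Sfmbt2, second start: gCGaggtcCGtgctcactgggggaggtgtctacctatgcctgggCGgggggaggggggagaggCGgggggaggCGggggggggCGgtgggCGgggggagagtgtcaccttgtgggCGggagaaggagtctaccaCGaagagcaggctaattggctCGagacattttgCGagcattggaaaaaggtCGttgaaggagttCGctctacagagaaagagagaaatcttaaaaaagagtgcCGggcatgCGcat
Mrc1: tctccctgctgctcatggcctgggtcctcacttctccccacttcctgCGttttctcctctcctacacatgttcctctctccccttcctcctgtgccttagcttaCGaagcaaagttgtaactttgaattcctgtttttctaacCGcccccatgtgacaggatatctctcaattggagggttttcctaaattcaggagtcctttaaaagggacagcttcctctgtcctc
Over 250 bases, the stretch before the first Sfmbt2 start held 8 CpG, that before the second 15, and that of Mrc1 3. As many CpG or more were found before 43.0%, 27.3% and 71.0% of the 32851 starts in the table, whose median was 6. Of the 34 protein-coding members 32 were matched, and the CpG count of their richest start ranged from 3 to 30 for the 6 matched lower genes and from 2 to 45 for the 24 that were not called. CpG content before the start therefore overlapped between lower and uncalled members.

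Sfmbt2 (ENSMUSG00000061186) spans 10370510 to 10595253 on the plus strand. Its raw count was 549 in knockdown cells and 3408 in control cells, which is 6.60-fold lower (6.02 to 7.23). Per kilobase of gene length its level was 2.35 CPM after knockdown against 15.5 CPM in the control. In the control library it was among the well expressed protein-coding members, whose median level was 2.97 CPM per kilobase, and in the knockdown library it lay below that value.

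The miRNA members start between 94.8 and 147 kb from the start of Sfmbt2, inside an intron of 62.5 kb from 10461473 to 10523944. GENCODE numbers it intron 10 in the transcript Sfmbt2-201 and intron 11 in Sfmbt2-205, and no exon of either overlaps them. Each is a hairpin gene of 73 to 127 bases. In the order knockdown against control, Mir669a-3 had 14 against 61 counts, 4.63-fold lower (2.56 to 8.96). Gm23571 had 7 against 64 counts, 9.71-fold lower (4.45 to 25.1), and Mir669k 3 against 41, 14.5-fold lower (4.63 to 73.3). Mir467a-1, of another family of the cluster, had 5 against 30 counts, a log2 ratio of -2.67 (-4.40 to -1.29).

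The 18 log2 ratios ran from -3.95 for Gm26491 (2 against 29 counts) to -1.57 for Gm24806 (10 against 28), with a median of -2.61, and 18 of 18 intervals, which are wide at these counts, included the ratio of Sfmbt2, -2.72. Mir669a-1 (8 against 31), Mir669a-4 (7 against 37) and Mir669a-5 (5 against 35) lay in between. The other members of the cluster were Gm22072, Gm22677, Gm23578, Gm25701, Gm24315, Gm23651, Gm22635, Gm23988 and Gm26398, with 3 to 8 knockdown and 25 to 45 control counts.

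All 18 passed the count minimum through the control library alone and so had to show fewer counts in the knockdown. The rest of the cluster did not pass through that filter. Of 119 miRNA genes annotated inside Sfmbt2, 119 had fewer raw counts in the knockdown than in the control library, and 12 had 0 in the knockdown. Their counts summed to 347 against 1755, 5.37-fold lower (4.79 to 6.05). The 101 genes under the minimum summed to 232 against 1115, 5.11-fold lower (4.43 to 5.91), and the 18 members to 115 against 640, 5.91-fold lower (4.84 to 7.28). The cluster and the exons of its host gene therefore differed in the same direction. The log2 interval of the sum over 119 genes, -2.60 to -2.26, did not include the ratio of Sfmbt2, -2.72. It overlapped the interval of Sfmbt2, -2.85 to -2.59, at the edge, and the interval of the 18 members, -2.86 to -2.28, included that ratio. A difference in size between cluster and host is not read from these values.

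**Figure D1:**
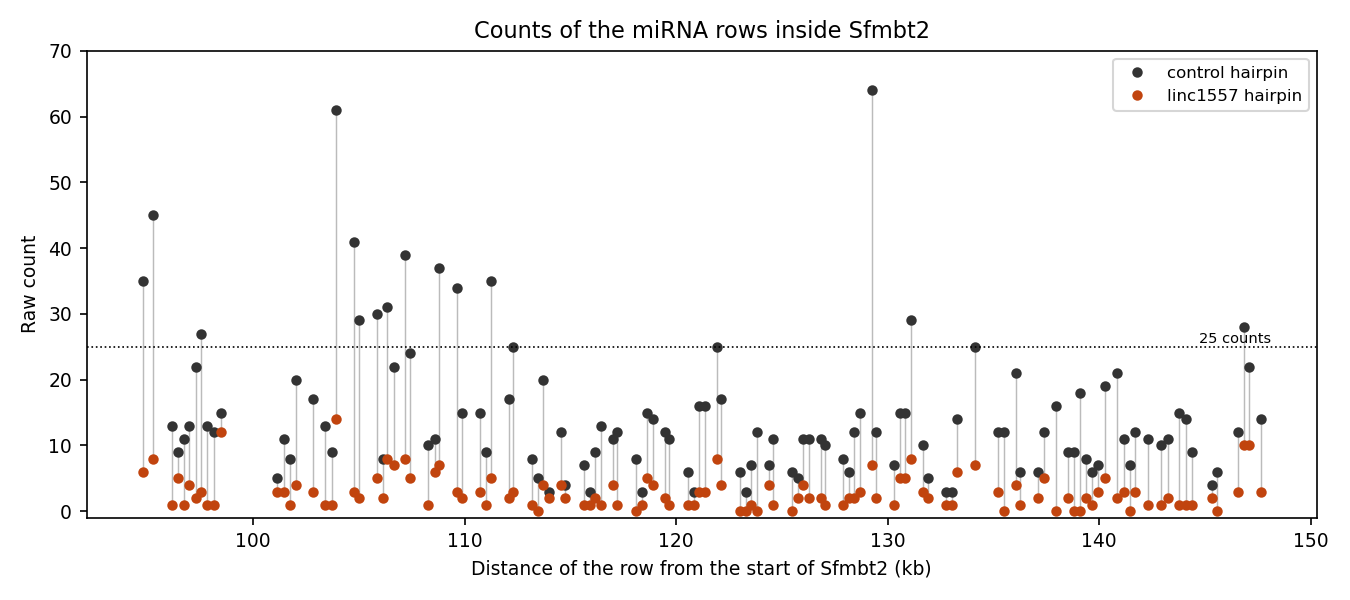
Raw counts of the 119 miRNA genes inside Sfmbt2, by distance in kb from the start of Sfmbt2. Black points are the control library and orange points the knockdown library, joined by a line per gene. The dotted line is the minimum of 25 counts, which 18 genes reached, all in the control library only.

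These 119 values are not independent of each other. They share a transcript and a library, and several share a family name, as the 4 members of miR-669a do. How reads with more than 1 possible place were counted is not given in the sources used here, so both the division of counts within the cluster and their sum are uncertain. Library preparation used the TruSeq RNA kit of Illumina on total RNA, and counts in a hairpin gene can come from the unspliced host transcript. They are not a measure of mature miRNA.

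Among gene classes, all miRNA members of the window belonged to the cluster. Of 153 miRNA genes that reached 25 counts in the whole table, 30 (19.6%) were lower, and 18 of these were the cluster. Of the 135 outside the window, 12 (8.89%) were lower, with a median log2 ratio of 0.02. Protein-coding members were lower in 7 of 34 cases (20.6%) and higher in 3 (8.82%), where 10.3% of all protein-coding genes were lower and 4.22% higher. Nothing is read from these shares, because the window was picked on these values. Il15ra, Mrc1, Cacnb2 and Nebl also passed the count minimum in the control alone, and Skida1 in the knockdown alone. None of the 7 TEC loci, the 2 processed pseudogenes and the single processed transcript was lower. The TEC locus Gm37289 and the snoRNA gene Gm23608 were higher, with 36 against 13 counts (2.61-fold, 1.35 to 5.36) and 28 against 13 counts (2.03-fold, 1.02 to 4.26). Both reached the count minimum in the knockdown library alone, so they had to show more counts there. The call of Gm23608 ended with total-count scaling (log2 ratio 0.90), with a prior count of 2 (0.92) and with centring by gene length (0.97).

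**Figure D2:**
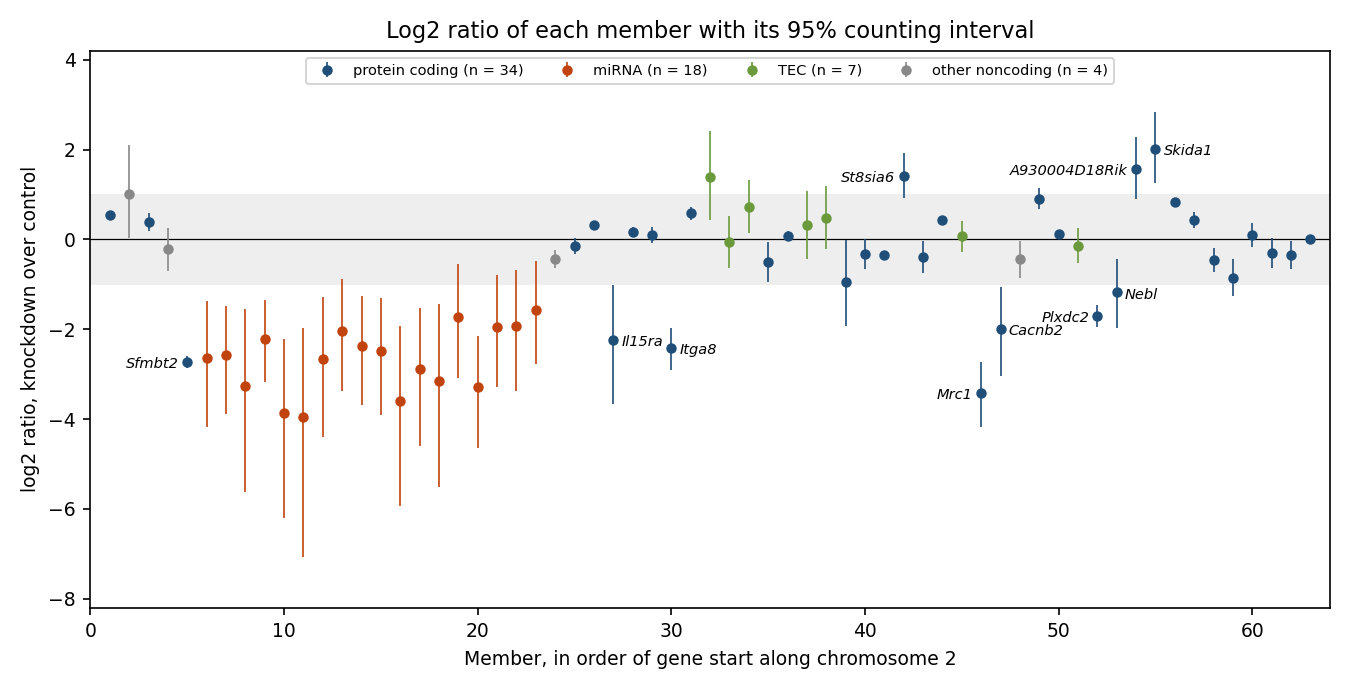
Log2 ratio of knockdown over control for the 63 members, ordered by gene start, with 95% counting intervals as bars. The grey band marks less than 2-fold. Colours give the gene class. Sfmbt2 and its 18 miRNA genes form an unbroken block, and among the other called genes Mrc1 with Cacnb2, and Plxdc2 through Skida1, stand next to each other.

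The distributions differed mainly through the 18 cluster genes. These share a transcript and passed the count minimum through the control alone, so their ratios had to fall on the lower side. The 10th percentile of the log2 ratio was -3.10 for the 63 members and -0.97 for all genes, and the medians were -0.39 and 0.02. Without the 18 cluster genes the members had a 10th percentile of -1.88 and a median of 0.00, and without Sfmbt2 as well they had -1.54 and 0.04. The neighbouring stretches of the chromosome had shorter lower tails. In the first 10 Mb, 3 of 30 genes were lower, with a 10th percentile of -0.75, and between 20 and 30 Mb 3 of 124, with -0.52. Over the rest of chromosome 2 outside the window, 75 of 1238 (6.06%) were lower.

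**Figure D3:**
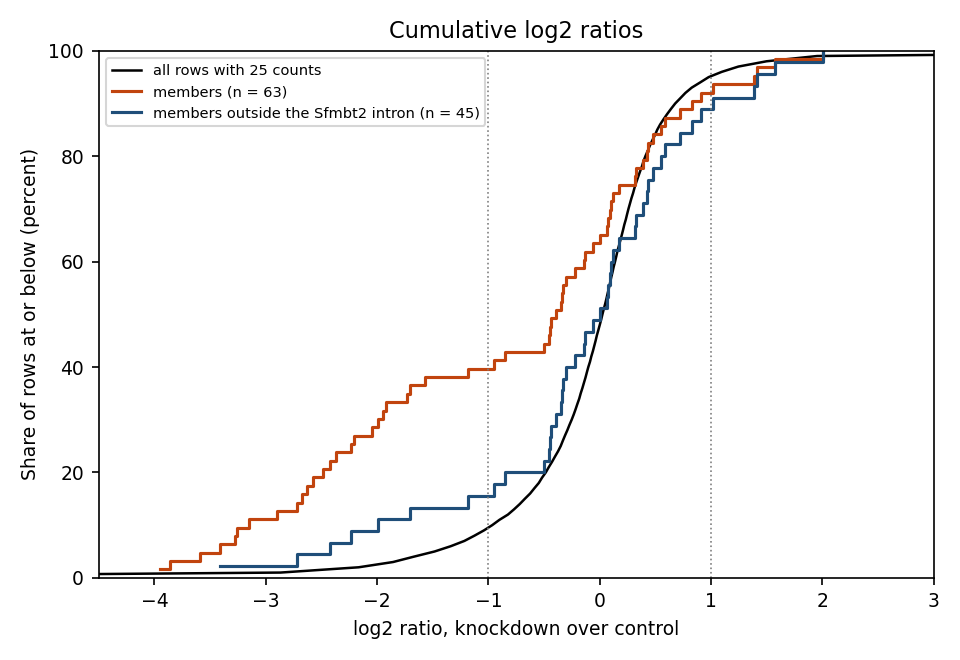
Cumulative share of genes, in percent, at or below each log2 ratio of knockdown over control. Black is all 15916 genes with 25 counts, orange the 63 members and blue the 45 members outside the Sfmbt2 intron, dotted lines mark 2-fold. The blue line meets the black one near its middle (medians 0.00 and 0.02) and lies above it on the left (10th percentiles -1.88 and -0.97).

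Gm13261 and the members that flank Sfmbt2 were not called. Gm13261, a noncoding transcript on the opposite strand that overlaps the start of Sfmbt2, had 71 against 78 counts, a log2 ratio of -0.22 with an interval of -0.71 to 0.26. Reads of such an overlapping pair cannot be told apart without a strand setting. Upstream, the head-to-head genes Atp5c1, which encodes the gamma subunit of ATP synthase, and Kin, which encodes a DNA and RNA binding protein, start 83 bases from each other. They stood at 5951 against 3813 counts (0.55) and 529 against 380 counts (0.39). Downstream, the next members were the pseudogene Gm13292 (382 against 486, -0.43), the glycolytic regulator Pfkfb3 (536 against 558, -0.15) and the splicing factor gene Rbm17 (4172 against 3127, 0.33). None of these was called, so in the order of members the lower block began and ended with Sfmbt2. That order skips genes under 25 counts, and Gm13292 lies 814 kb past the end of Sfmbt2.

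Of the 7 lower protein-coding members, 5 encode cell surface receptors or channel subunits. That grouping of roles was made with the values known, and Mrc1, Il15ra and Cacnb2 passed the count minimum through the control alone, so nothing is read from the group's share. Among all protein-coding genes 10.3% were lower. Mrc1, the macrophage mannose receptor, had 19 against 190 counts, 10.6-fold lower, with a log2 interval of -4.17 to -2.73. Itga8, the integrin alpha 8 chain, had 47 against 237 counts, 5.36-fold lower (3.90 to 7.49). Il15ra, the alpha chain of the interleukin 15 receptor, had 7 against 31 counts, 4.71-fold lower (2.03 to 12.7).

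Cacnb2, a beta subunit of voltage-gated calcium channels, had 12 against 45 counts, 3.98-fold lower (2.07 to 8.27). Plxdc2, a membrane protein with a plexin domain, had 176 against 538 counts, 3.25-fold lower (2.73 to 3.87). Cubn, the endocytic receptor cubilin of visceral endoderm and kidney, had 16 against 29 counts and a log2 ratio of -0.95 (-1.92 to -0.02). It was not called but passed with total-count scaling (-1.06) and after thinning of the deeper library (-1.28). Nebl encodes nebulette, an actin-binding protein of muscle, and had 23 against 49 counts, 2.26-fold lower (1.35 to 3.89).

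Most of these genes were weakly expressed. Apart from Sfmbt2, the lower protein-coding members had control levels between 0.133 CPM per kilobase for Nebl and 3.21 for Plxdc2. Il15ra, Mrc1, Cacnb2, Nebl and Cubn passed the count minimum through the control library alone. Of the 37 members that passed it in both libraries, 3 were lower (Sfmbt2, Itga8 and Plxdc2) and 2 were higher (St8sia6 and A930004D18Rik). Of all genes that passed it in either library, 9.44% were lower and 4.81% higher. The shares among all genes that passed in both were not computed, so nothing is read from these counts. Among protein-coding members below their median level, 6 of 17 were lower, and at or above it 1 of 17. In all protein-coding genes split in the same way, 17.6% were lower below the median and 3.01% at or above it.

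They were also long. Of the 14 protein-coding members that span 100 kb or more, 6 were lower, and of the 20 shorter ones 1 was, Il15ra. Among all protein-coding genes, 21.2% of the 1845 long and 8.50% of the 11395 shorter ones were lower. Long members that were not called included Etl4 (4156 against 3903 counts, 901 kb), Rsu1 (1468 against 1309, 195 kb) and Pip4k2a (258 against 227, 156 kb). The part of gene length and of expression level in the lower calls was not tested.

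**Figure D4:**
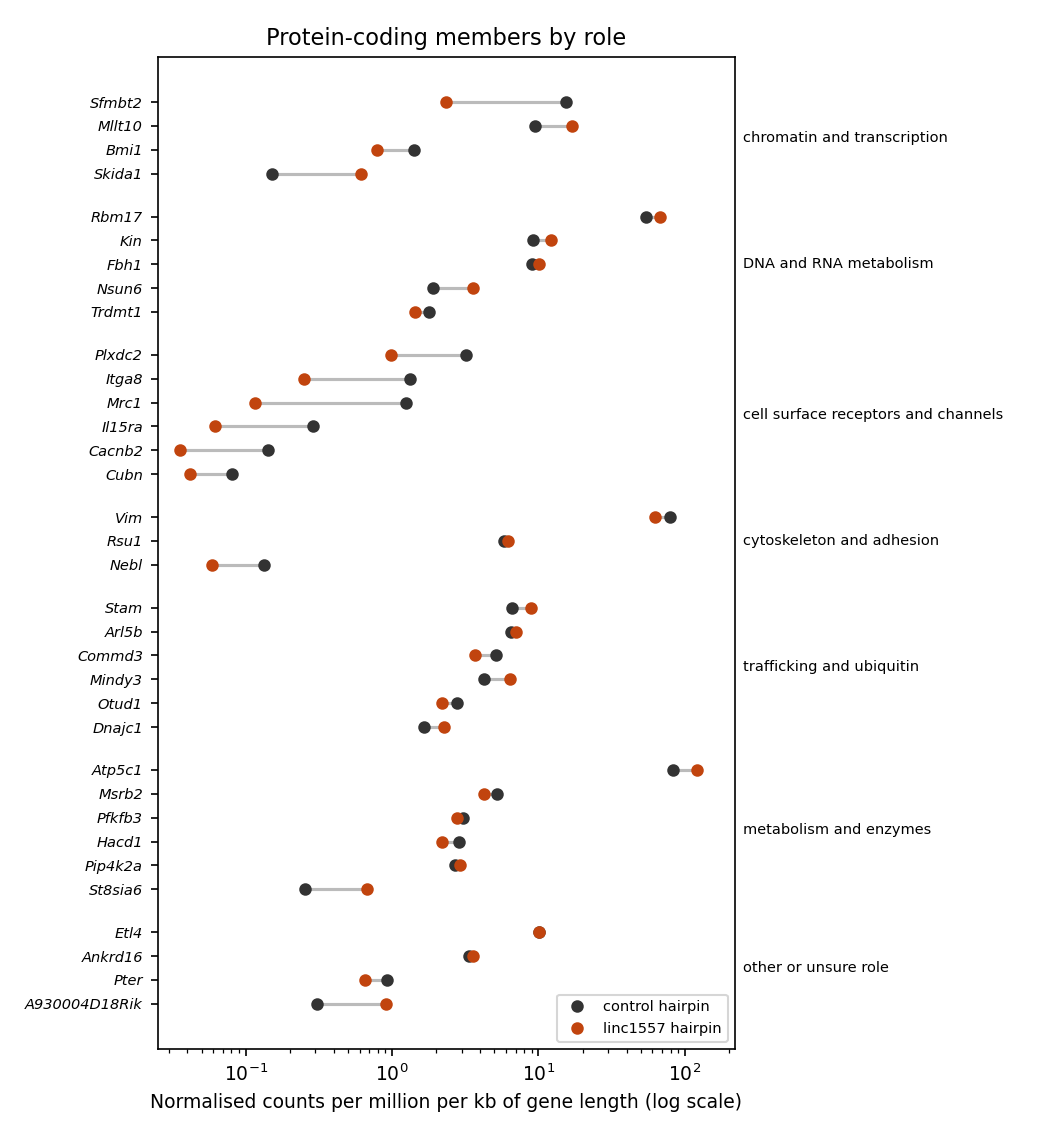
Level of the 34 protein-coding members in CPM per kb of gene length, on a log scale, grouped by role. Black is the control library and orange the knockdown library, joined per gene. The points lie farthest apart for Mrc1 (10.6-fold) and Sfmbt2 (6.60-fold) and coincide for Etl4.

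Most markers of fibroblasts, macrophages, visceral endoderm and trophectoderm that reached 25 counts were lower, where 9.44% of all genes were. Several of the lower ones, such as Csf1r (15 against 69 counts), Sox17 (2 against 154) and Cdx2 (2 against 31), passed that minimum through the control alone. Such genes had to show fewer counts in the knockdown, and Marco (135 against 0) passed through the knockdown alone. Fibroblast markers nearly all reached the minimum in both libraries, but all the lists were chosen with earlier results of these data known. Nothing is therefore read from these shares. Among 26 fibroblast markers 18 were called lower and 0 higher, and their median log2 ratio was -1.37. Of the 11 macrophage markers that reached 25 counts, 7 were lower, Mrc1 among them, and Marco was higher. Adgre1 (81 against 43 counts, 0.83), Cd68 (348 against 281, 0.22) and Itgam (34 against 32, 0.00) were not called. The 16 macrophage markers summed to 30.5 CPM after knockdown against 42.3 CPM in the control, and Marco was at 0 in the control. Of the 8 visceral endoderm markers that reached 25 counts 5 were lower. The sum over all 13 was 369 against 404 CPM, and without Apoe and Lrp2, the most abundant, 9.99 against 39.5 CPM. Ttr was at 0 in both libraries, and Afp had 0 against 1 count. Of the 6 trophectoderm markers that reached 25 counts 5 were lower, with a sum over all 10 of 34.9 against 130 CPM. Elf5 and Plac1 each had 0 against 1 count. Their part in the ratios of Mrc1, Itga8, Plxdc2, Cubn and Sfmbt2 was not tested.

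Of the 6 lower genes outside Sfmbt2, 4 stood next to another lower member. That order of members skips the 222 genes of the window under 25 counts. Of these 4 genes, Mrc1, Cacnb2 and Nebl passed the count minimum through the control alone, and with at least 100 counts 0 adjacent pairs were left. Nothing is read from these pairs. With the cluster counted as part of Sfmbt2, 7 of 45 members were lower, and 2 of the 44 adjacent pairs were lower on both sides. Those were Mrc1 with Cacnb2, whose starts are 374 kb apart, and Plxdc2 with Nebl, 988 kb apart. Between Sfmbt2 and Il15ra lie 1.33 Mb and 3 members, between Il15ra and Itga8 0.401 Mb and 2 members, and between Itga8 and Mrc1 2.12 Mb and 15 members. Cacnb2 and Plxdc2 are separated by 1.75 Mb and 4 members. With the cluster included, 20 of 62 adjacent pairs were lower on both sides, of which 18 were within the Sfmbt2 block.

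Genes that lie inside the span of another member gave a varied picture. The snoRNA gene Gm23608, called higher at 1.02, lies inside Atp5c1, which stood at 0.55 and was not called. The 3 TEC loci inside Mindy3, a deubiquitinase gene with a log2 ratio of 0.59 (1032 against 647 counts), stood at 1.38, -0.06 and 0.72. The pair inside Rsu1, at 0.08, stood at 0.31 and 0.48. Gm13316, a pseudogene on the opposite strand of the lower gene Cacnb2, had 89 against 114 counts, a log2 ratio of -0.44 that was not called. Gm38257 inside Arl5b stood at -0.14, its host at 0.12, and neither was called. The 18 miRNA members shared the lower call of Sfmbt2, but they had passed the count minimum in the control alone. Gm23608 and Gm37289, the locus inside Mindy3 at 1.38, had passed it in the knockdown alone.

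Higher calls numbered 5 of 63 members (7.94%), where 4.81% of all genes were higher. Skida1, Gm37289 and Gm23608 reached the count minimum in the knockdown library alone and had to show more counts there. Nothing is therefore read from this share or from the adjacent pair named below. Skida1, which encodes a nuclear protein with a SKI/DACH domain, had 77 against 18 counts, 4.03-fold higher (2.39 to 7.15). The neighbouring A930004D18Rik had 79 against 25 counts, 2.97-fold higher (1.88 to 4.87). They are adjacent on the minus strand and together span 23.9 kb, the only pair of adjacent members both called higher. Mllt10, which encodes AF10, a cofactor of the histone methyltransferase DOT1L, starts beyond Skida1 and had 2548 against 1348 counts, 1.78-fold apart (1.66 to 1.90), short of a call. St8sia6, a sialyltransferase gene, had 133 against 47 counts, 2.66-fold higher (1.90 to 3.80).

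Among chromatin genes, Bmi1, a subunit of Polycomb repressive complex 1, had 80 against 136 counts, a log2 ratio of -0.85 (-1.27 to -0.44). Commd3, which lies just before it on the same strand, had 221 against 286 counts (-0.46). In the list of 26 PRC1 and MBT genes 4 were called lower and 0 higher, where 10.3% of all protein-coding genes were lower, and the median log2 ratio was -0.29. Besides Sfmbt2 they included the MBT gene L3mbtl3 (log2 ratio -1.92) and the chromobox gene Cbx8 (7 against 29 counts, -2.14). Cbx8 and another of the lower genes reached the count minimum in the control alone, so nothing is read from this share. The paralogue Sfmbt1 had 427 against 380 counts and a ratio of 0.08. Of 7 genes of the DOT1L complex and AF10 relatives none was called, with a median of -0.11.

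The abundant cytoskeletal gene Vim, which encodes the intermediate filament vimentin of mesenchymal cells, had 7618 against 9121 counts. Its log2 ratio was -0.35 (-0.39 to -0.30), and its level per kilobase was 62.7 against 79.7 CPM. Of 15 intermediate filament and lamin genes, 8 were lower and 1 was higher, with a median of -1.09, where 10.3% of protein-coding genes were lower and 4.22% higher, and the lower ones included Krt8 (-3.56) and Krt18 (-3.33). Some of the lower ones reached the count minimum in the control alone, and Krt8 and Krt18 also count among the trophectoderm markers above. Nothing is read from these shares. Rsu1, which binds PINCH at integrin adhesions, had a ratio of 0.08, and of the 6 measured ILK, PINCH and parvin genes Parva was lower (-1.44) and Parvb higher (1.72).

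The remaining coding members, genes of trafficking, ubiquitin, metabolism and RNA modification, were mostly not called. None of the 6 trafficking and ubiquitin genes was called. Stam, of the ESCRT-0 sorting complex, had 1903 against 1331 counts (0.43), Arl5b, a small GTPase gene, 1874 against 1624 (0.12) and Dnajc1, an endoplasmic reticulum cochaperone, 671 against 468 (0.43). Otud1, a deubiquitinase gene, stood at -0.34. None of the 5 genes of DNA and RNA metabolism was called either. Nsun6, an RNA cytosine methyltransferase gene, came closest to a call, with 460 against 231 counts (0.91), whereas the tRNA methyltransferase gene Trdmt1 had 140 against 166 (-0.33).

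Of 6 metabolic and enzyme genes only St8sia6 was called. Hacd1, a dehydratase of fatty acid elongation, had 119 against 147 counts (-0.39), Msrb2, a mitochondrial methionine sulfoxide reductase, 149 against 173 (-0.30), and the lipid kinase gene Pip4k2a 258 against 227 (0.10). Fbh1, a DNA helicase gene, and Ankrd16, which start 294 bases apart head to head, had ratios of 0.17 and 0.09. Pter stood at -0.50, with 79 against 105 counts. Of the 24 uncalled coding members, 17 had an interval that excluded 1, at ratios under 2-fold.

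Some genes of the window fell outside the count minimum. Itih5 had 20 against 22 counts and Itih2 0 against 6, both chains of the inter-alpha-trypsin inhibitor, and none of 6 genes of that family reached 25 counts. Il2ra, the interleukin 2 receptor alpha chain, was at 0 in both libraries, which allows up to 3 counts in each. Of the 3 genes of the interleukin 2 and 15 receptor list that reached 25 counts, Il15ra was lower and Il2rg higher (51 against 21 counts, 1.19). Il15ra reached the minimum in the control alone and Il2rg in the knockdown alone, which fixed their directions, so nothing is read from them. Just inside the minimum lay Gm23651, Gm22635 and Gm26398 with 25 control counts, and just outside it Mir669j with 5 against 24. Past the window's ends, the nearest measured coding genes were Taf3 (757 against 581, 0.29) and Arhgap21 (2042 against 2257, -0.23).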

How the data were processed

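Values are the authors' deposited raw read counts per Ensembl gene, with a gene length column. The submitters' processing notes name mm10 and GRCm38 as builds, and as tools HISAT2, featureCounts, Trim Galore and DESeq. For versions, annotation release, strand setting and reads with several places, the entry is: not given in the sources used here. Symbols, classes and coordinates came from GENCODE M21 (GRCm38), which matched 46488 of 46983 identifiers, and upstream sequences from RefSeq GRCm38.p6.

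Library sizes were scaled by TMM with edgeR 4.0.16 in R 4.3.3 (factors 0.960 and 1.04, knockdown first). Ratios and exact 95% intervals were computed in Python 3.11.15 with scipy 1.17.1, with a count of 0 set to a floor of 3 counts. Simulated counts with known folds were used to test the calling script. Alternatives were total counts, DESeq2 1.42.0 size factors, TMM on nuclear protein-coding genes, other count minimums and fold thresholds, a prior count of 2, thinning, centring in 20 bins and other memberships. The members and gene lists were chosen with earlier results of these data known. Named genes are every called member, the 10 highest by length-scaled control level, members of the lists and a fixed set of coding genes, and others of the window were added after their values were seen. With 1 library per group, no test, p-value or replicate error was possible. The target linc1557 and 1 gene of the lists are not reported here.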

Additional observations from a re-analysis of the deposited data

How the results depend on the processing

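The main values were 25 members lower, 5 higher, 20 adjacent pairs lower on both sides, a median log2 ratio of -0.39 and a 10th percentile of -3.10. With the minimum lowered to more than 3 counts in either library, 188 of the 285 genes of the window were members. Of these 86 were lower, in 60 adjacent pairs, and the median was -1.67. With at least 100 counts, 4 were lower and 1 higher, in 0 pairs. At 1.5-fold 9 were higher, and at 4-fold 1 was higher with 13 pairs. Members that overlap no other annotated gene gave 2 lower, 1 higher and 0 pairs, and protein-coding members alone 7 lower, 3 higher and 2 pairs. Leaving out the genes inside Sfmbt2, chosen after seeing the data, gave 7 lower, 2 pairs and a median of 0.0032. The narrower memberships count fewer genes by construction. Total-count scaling moved the median of all genes from 0.02 to -0.09, and 26 members were then lower. Settings that change only which genes count as members cannot move a gene's ratio. Of 423 values of 47 named members under the other settings, 404 kept their call, 14 lost it, of which 11 at the 4-fold threshold, 5 gained it and none changed sign while called. No paired analysis was possible because each group has 1 library, and for the same reason no library could be left out. Counts of 2 to 14 in the knockdown limit each miRNA ratio.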
